A study of Mus musculus with 2 samples.

Results

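Pcp4, Calb1, Htr5b, Rit2 and Cdr1 are 5 genes usually associated with neurons that were among the genes most lowered after injury in ependymal cells, the ciliated cells lining the central canal of the spinal cord. They were chosen for that fall, so the fall itself is given as a description. They are 5 of the 17189 genes in the authors' table of EpA cells, the name the authors gave to a subset of ependymal cells. All 5 are listed in that table and all 5 passed the floor of 50 CPM (counts per 1000000 unique molecular identifiers, UMIs) through the uninjured library, where they were high. The series holds 2 single-cell RNA libraries from the spinal cord of C57BL/6J mice of at least 12 weeks. Both groups carried Troy-CreERT2+/- and Rosa26-tdTomato, so that cells in which the Troy (Tnfrsf19) promoter drove the recombinase were marked red, and tdTomato+ cells were sorted in both. The uninjured group was an intact cord. The injured group was taken at day 3 after the dorsal funiculus was incised, from the 5 mm around the lesion, and the matching segment was taken from the intact cord. Each condition was 1 library and the number of animals behind it is not given in the sources used here, so no test was possible and every interval below is an exact 95% interval for counting error only.

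Ependymal cells beat motile cilia that move cerebrospinal fluid along the canal, under a programme headed by the transcription factor Foxj1 and helped by Rfx factors. After spinal cord injury they can divide and migrate. Around the same canal lie cerebrospinal fluid-contacting neurons, and neurons are the cells in which the 5 genes are best known. Pcp4 (PEP-19) is a small protein that binds calmodulin through an IQ motif. Calb1 (calbindin) is an EF-hand protein that buffers calcium. Htr5b is a G protein-coupled serotonin receptor. Rit2 (Rin) is a Ras-like GTPase that binds calmodulin. Cdr1 is an intronless gene first described as an antigen in cerebellar degeneration.

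In the GENCODE M21 annotation of GRCm38, Pcp4 spans chr16:96467606-96525793 on the plus strand and Calb1 spans chr4:15881264-15908064 on the plus strand. Htr5b spans chr1:121509842-121528465 on the minus strand. Pcp4 overlaps Igsf5 on the same strand, and Igsf5 itself was seen with 0 UMIs in uninjured and 1 in injured EpA cells. Cdr1, at chrX:61184005-61185558 on the minus strand, lies inside C230004F18Rik, a long noncoding RNA of the plus strand at chrX:61116378-61292484. That locus makes the circular RNA Cdr1as, known for its many sites for the microRNA miR-7, and it is not in the tables used here. Whether the authors' counting used strand is not given in the sources used here, so UMIs of Cdr1 and of its antisense partner cannot be told apart.

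The window of 300 bases around the start of Cdr1 (RefSeq, GRCm38.p6, chrX:61185509-61185808, minus strand, 250 bases before the start and 50 after) is printed because it shows the repeats by which both strands of this locus are known. The mature sequences of the 2 mouse miR-7 microRNAs from RefSeq follow it. The capitals mark GGAAGAC, which is the seed of miR-7, bases 2 to 8 of the microRNA, and which the Cdr1 strand repeats 5 times.
Cdr1 window: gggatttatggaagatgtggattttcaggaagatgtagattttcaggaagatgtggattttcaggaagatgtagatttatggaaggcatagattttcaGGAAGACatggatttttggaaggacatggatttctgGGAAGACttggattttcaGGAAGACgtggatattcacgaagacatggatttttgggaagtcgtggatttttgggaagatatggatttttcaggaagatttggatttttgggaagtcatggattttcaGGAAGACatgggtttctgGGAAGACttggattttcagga
mmu-miR-7a-5p: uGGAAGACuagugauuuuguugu
mmu-miR-7b-5p: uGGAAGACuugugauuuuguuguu
Since Cdr1 carries the letters of the seed itself, the opposite strand carries the complement, GTCTTCC, which is the letters a miR-7 seed pairs with. Of 32851 windows of this length, 886 (2.70%) held GGAAGAC on the strand of their gene, and this window was the 1 with as many as 5. The motif was chosen after the window had been seen. In the Pcp4 window (chr16:96467356-96467655, plus strand) none of 4 motifs matched on either strand. These were GTTGCC, one arm of the site of Rfx factors (in 12.5% of all windows), the forkhead motif TGTTTAC (3.65%), and CAGCACC (7.14%) and GGACAGC (6.56%), the arms of the element bound by the neuronal silencer REST. The Cdr1 window held none of these 4 either. The other 3 genes had no window in the table used.

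The uninjured EpA library had 555 cells and 7689179 UMIs (median 11387 per cell), and the injured library had 1004 cells and 25296289 UMIs (median 20158.5). The ependymal label matched its markers, all 10 of which were detected in both libraries, with a sum of 15310 CPM in uninjured and 5101 CPM in injured cells. Of 15 neuron markers, 10 had a UMI in uninjured EpA cells, with a sum of 307 CPM, but Stmn2 (152 CPM) and Map2 (147 CPM) made up nearly all of it. The defining markers Rbfox3 and Elavl4 were at 0, and Slc17a6, Slc6a5 and Chat were not listed in the EpA tables. In injured cells 12 of 15 had a UMI, with a sum of 756 CPM, of which Stmn2 gave 635 CPM. The 11 markers listed for cerebrospinal fluid-contacting neurons summed to 12.9 CPM in uninjured and 10.7 CPM in injured cells, and Pkd2l1, Pkd1l2, Sst and Myo3b were not listed in the EpA tables. A total of 18 cell barcodes occurred in the tables of both libraries, 2 of them as EpA cells, and each library's cells were kept apart.

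In uninjured EpA cells, Pcp4 stood at 668 CPM (649 to 686), which is 9.25 UMIs per cell. In injured cells it stood at 139 CPM (135 to 144), or 3.51 UMIs per cell. It was thus 4.79-fold lower by CPM (4.59 to 5.00) and 2.63-fold lower per cell. Calb1 went from 120 to 26.7 CPM, 4.49-fold lower (4.06 to 4.96). Htr5b stood at 76.3 and 13.6 CPM, 5.61-fold lower (4.91 to 6.43). Rit2 stood at 80.8 and 17.4 CPM, 4.64-fold lower (4.10 to 5.26). Cdr1 stood at 63.7 and 13.3 CPM, 4.80-fold lower (4.17 to 5.53). By summed CPM the 5 folds thus ran from 4.49 to 5.61. The injured cells held more UMIs each, so the log2 ratios were also taken on cells thinned to 2000 UMIs each. They were -1.33 for Pcp4 (in place of -2.26), -1.40 for Rit2, -1.82 for Calb1, -1.98 for Htr5b and -2.09 for Cdr1. The draw is random and leaves few UMIs, with Cdr1 seen in 34 and Htr5b in 36 injured cells. The spread between the genes is therefore not read from it. With every cell weighted alike and no UMI discarded, the log2 ratios ran from -1.31 for Pcp4 to -1.76 for Htr5b. Of 3706 genes at 50 CPM or more in either library, 511 (13.8%) were at least 2-fold lower, and since the 5 genes were picked from this comparison nothing is read from their count. Cells with transcripts of G2 and mitosis weighed on the sums. At full depth 73 uninjured and 318 injured cells held at least 2 of 12 core genes of G2 and mitosis. Without them the log2 ratios were between -1.89 for Htr5b and -1.50 for Pcp4. The part of cell depth in this shift was not tested.

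The relatives of the 5 genes did not all share the fall. Pcp4l1, the closest relative of Pcp4, went from 1109 to 454 CPM, 2.44-fold lower (2.38 to 2.51). Calb2 (calretinin), the relative of Calb1, stood at 15.7 and 3.56 CPM, 4.42-fold lower (3.34 to 5.88). Rit1, the more widely expressed relative of Rit2, went from 19.5 to 27.2 CPM. Cdr2 went from 4.55 to 9.05 CPM, and Htr5a was not listed. The following lists count genes with a mean of at least 5 CPM, of which 1187 of 10527 (11.3%) were at least 2-fold lower and 1151 (10.9%) at least 2-fold higher, with a median log2 ratio of -0.03. Of 17 calmodulin and IQ-motif genes, 5 were lower and 5 higher (median log2 ratio -0.45). Iqca was the lowest at 370 against 90.2 CPM, and Gap43, a growth cone protein, the highest at 0.13 against 84.4 CPM on 1 uninjured UMI. Of 15 EF-hand genes, 6 were lower and 3 higher (median -0.51), from Calb2 to S100a6, which went from 57.4 to 1652 CPM. Of 15 Ras-like GTPases, 0 were lower and 5 higher (median 0.81), among them Rras (15.1 to 43.0 CPM) and Nras (25.9 to 72.4 CPM). Only 2 genes of the serotonin list were measured, and Maob, which degrades monoamines, went from 46.4 to 16.3 CPM. The motile cilium list was the one whose members were nearly all lower, 50 of 52 with a median of -1.48.

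Within the uninjured library, which cells carried the genes differed from gene to gene. Pcp4 was nearly everywhere, with a UMI in 519 of 555 cells (93.5%), a median of 8 UMIs and a maximum of 49. Rit2 was seen in 324 cells (58.4%), and 348 would be expected if every cell held it at 1 common level. Rit2 was therefore seen in close to the number of cells that its level allows. Calb1 was seen in 296 cells (53.3%) where a common level would give 418. Htr5b was seen in 261 cells (47.0%) where a common level would give 338, and Cdr1 in 261 where it would give 305. All 3 were thus missing from more cells than depth accounts for, and so was Pcp4, for which a common level would give 549 cells. The 55 cells with most Calb1 held 45.6% of its UMIs. As a measure of this unevenness, the squared variation between cells beyond counting noise was 1.11 for Calb1, 0.90 for Htr5b, 0.63 for Cdr1, 0.22 for Rit2 and 0.20 for Pcp4. Its median over 3198 genes was 0.07, and 37 of them exceeded Calb1. As a background for these shares, kept cells of the same library that were not ependymal had Pcp4 in 10 of 152 cells (6.58%), Rit2 in 2, Calb1 in 1 and Htr5b and Cdr1 in 0. Their median depth was 6879.5 UMIs.

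**Figure D1:**
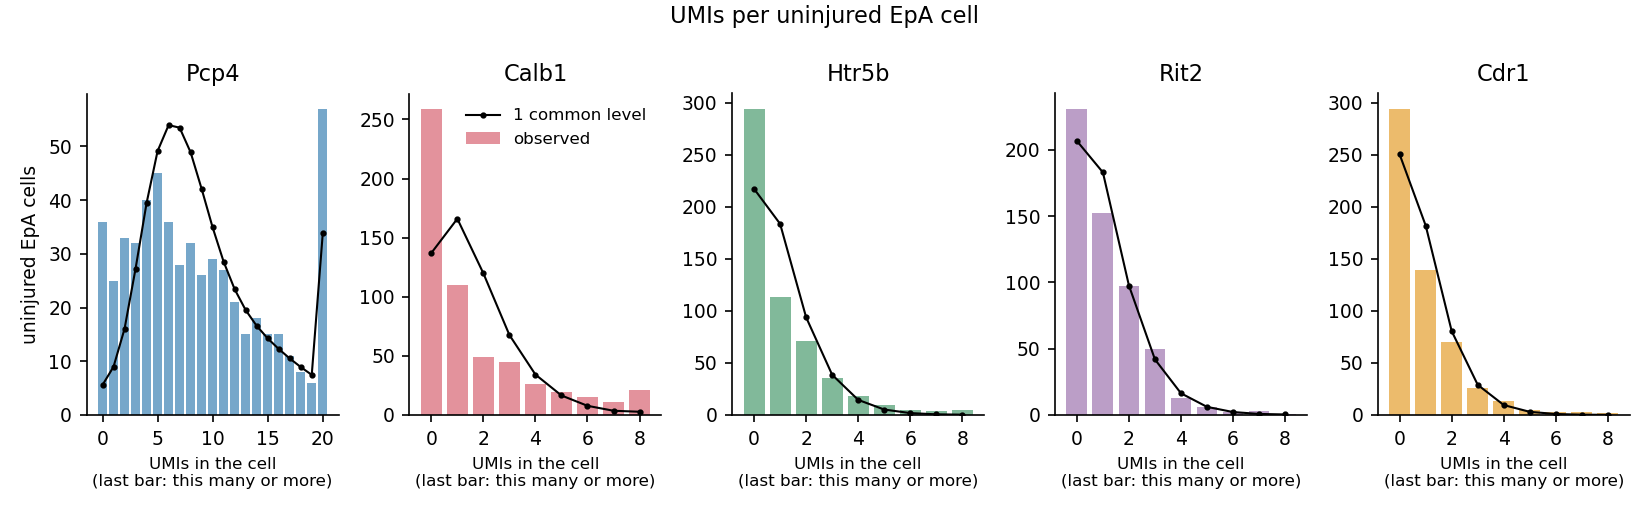
UMIs of each gene per uninjured EpA cell: bars give the observed number of cells (y axis) at each UMI count (x axis, the last bar pooling higher counts), and the black line gives the number that 1 common level at each cell's depth would give. Calb1 has 259 cells without a UMI against 137 on the line, and Pcp4 has 36 against 5.58.

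In resting cells thinned to equal depth, no pair of the 5 genes had detection intervals that lay apart, within the limits given below. At full depth 46 of 555 uninjured cells had a UMI of all 5 genes, 160 of 4, 159 of 3, 133 of 2, 48 of 1 and 9 of none. To set cells at equal depth, each was reduced at random to 2000 of its UMIs, and the 8 uninjured and 12 injured cells with fewer were left aside. For each of the 10 pairs, the share of cells with the second gene was then compared between cells with and without the first. In uninjured cells 0 of 10 pairs had intervals that lay apart, and Pearson's r over the 547 cells ran from -0.04 to 0.16, the highest for Pcp4 with Rit2. The 4 rarer genes were seen in only 72 to 107 of these cells, so a modest overlap could not be seen. At 2000 UMIs Calb1, for instance, was seen in 18.6% (14.7 to 23.0) of cells with Pcp4 and in 21.5% (15.8 to 28.1) of cells without it. At full depth, where cells differ in depth, all 10 uninjured pairs were higher with the first gene. There 2 lay apart, Rit2 with Pcp4 and Rit2 with Htr5b. In injured cells at 2000 UMIs, 3 of 10 pairs lay apart, all of them with Pcp4. Calb1 was seen in 10.8% of cells with Pcp4 and 4.45% without, Htr5b in 7.77% and 1.87%, and Rit2 in 10.8% and 4.17%. At 4000 UMIs all 10 pairs of the injured library lay apart and 0 of the uninjured. Among injured cells with a cilium content in the uninjured range, described next, 0 of 10 pairs lay apart at 2000 or 4000 UMIs. At full depth all 10 of these pairs were higher with the first gene and 1 lay apart. Rit2 was seen there in 57.2% of cells with Calb1 and in 39.1% without.

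To follow the genes along the loss of cilium transcripts, each thinned cell was given the share of its UMIs that fell on 52 motile cilium genes, none of them among the 5. The median share was 1.7% in uninjured and 0.8% in injured cells. Cells at or above 1.15%, the 5th percentile of uninjured cells, were called within the range. These were 521 uninjured and 424 injured cells of like depth (median 11531 and 11481.5 UMIs), while 568 injured cells fell below it and were deeper (median 28233.5).

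Injured cells within the range kept most of each gene, and somewhat less than uninjured cells. Pcp4 was at 668 CPM in the uninjured cells of the range and 485 CPM in the injured ones, 1.38-fold lower (1.32 to 1.44). Calb1 stood at 122 and 92.4 CPM, 1.32-fold lower (1.19 to 1.47), and Htr5b at 74.7 and 48.5 CPM, 1.54-fold lower (1.33 to 1.78). Rit2 stood at 80.5 and 55.1 CPM, 1.46-fold lower (1.28 to 1.68), and Cdr1 at 64.6 and 39.3 CPM, 1.64-fold lower (1.40 to 1.93). None of the 5 was 2-fold lower, and 3 of 3414 genes were (0.0879%). The cells are part of those in which the 5 genes were picked for their fall, so nothing is read from their direction here. The cilium genes in these cells had a median log2 ratio of -0.05 and all genes one of 0.03, against -0.55 for the 5, but the cells were selected on the cilium share, which holds the cilium median near 0. Ccdc153, the lowest of the 50 cilium genes tested, went from 1725 to 1110 CPM, 1.55-fold lower (1.51 to 1.60). Foxj1 was at 539 CPM in injured cells within the range, against 426 CPM in uninjured ones. With 1 library a condition, the injury and the library cannot be told apart as the source of such small differences.

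Injured cells below the range held far less of each of the 5 genes. Pcp4 stood at 29.7 CPM (27.3 to 32.3), 22.5-fold lower than in uninjured cells within the range (20.6 to 24.6). Calb1 stood at 5.88 CPM and Htr5b at 2.55 CPM, 20.8-fold (17.1 to 25.5) and 29.3-fold (21.8 to 40.1) lower. Rit2 stood at 5.42 CPM and Cdr1 at 5.00 CPM, 14.9-fold (12.1 to 18.5) and 12.9-fold (10.4 to 16.3) lower. These folds also come from cells in which the genes were picked. Cells near the cut weighed on them: by steps of cilium share, the 345 cells under 0.25% held 51 of the 571 Pcp4 UMIs. With the cut at the 1st percentile of uninjured cells in place of the 5th, the log2 ratio of Pcp4 went from -4.49 to -5.38, that of Calb1 from -4.38 to -5.38 and that of Htr5b from -4.87 to -5.75. Other measures moved along with the cilium share. The median mitochondrially encoded share of a cell's UMIs was 11.1% in uninjured cells within the range, 8.77% in injured cells within it and 5.04% below it. Pericyte and smooth muscle markers summed to 41.0, 142 and 962 CPM in the same order. Of these 9 markers, 5, 6 and 9 had a UMI, but only 2, 2 and 3 were over 5 CPM. Neuron markers summed to 306, 428 and 860 CPM, with 2, 2 and 6 of 15 over 5 CPM. The part of these in the result was not tested. Foxj1 was 3.14-fold lower (2.98 to 3.31) by CPM, and Ccdc153 was 47.0-fold lower (43.6 to 50.8), the largest fall among 3826 genes tested. The 49 cilium genes tested were all past the 2-fold mark, in cells selected for a low cilium share. Their median was -2.72 in log2, against -4.37 for the 5 genes. Of the 3826 genes, 768 (20.1%) fell at least 2-fold and 72 (1.88%) at least 10-fold. Per cell, Foxj1 went from 6.02 to 4.59 UMIs and Pcp4 from 9.45 to 1.01. Of the 568 cells, 309 had no UMI of any of the 5 genes, against 2 of 521 uninjured cells within the range, in spite of the greater depth. Among the cells below the range, those with at least 2 core genes of G2 and mitosis (258 cells, median 42064.5 UMIs) had 11.4 CPM of Pcp4 and the other 310 (median 20932) had 61.2 CPM.

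**Figure D2:**
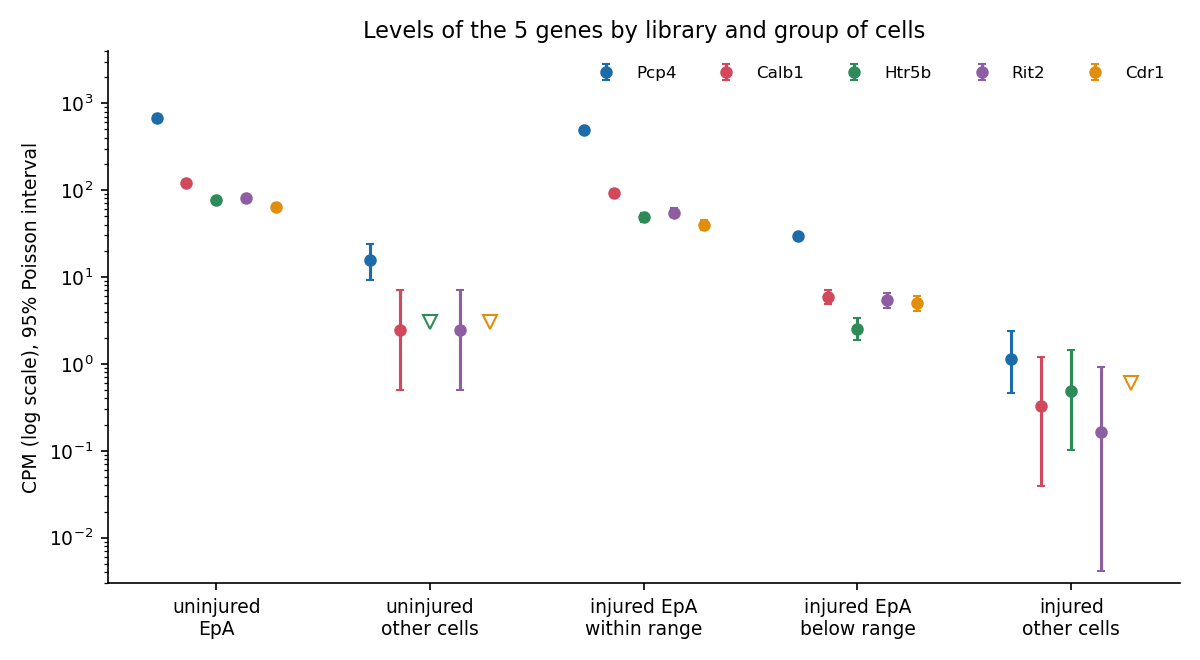
CPM of each gene (y axis, log scale) in uninjured EpA cells, injured EpA cells within and below the cilium range, and kept cells of each library that were not ependymal-like (other cells); points carry 95% Poisson intervals, and open triangles are upper limits where no UMI was seen. Every gene is lower in injured cells below the range than in those within it, as with Pcp4 at 29.7 against 485 CPM, and lower still in the other cells of that library.

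In finer steps of cilium content, the 5 genes had intermediate levels in injured cells and could be set beside the cilium genes. In the 345 injured cells with a share under 0.25%, Pcp4 stood at 0.56% of its level in uninjured cells within the range (0.41 to 0.73), while Foxj1 stood at 18% and the cilium list at 5.37%. In the 39 cells between 0.5 and 0.75%, Pcp4 stood at 11.6% (8.88 to 15), Rit2 at 14.5%, Cdr1 at 18% and Calb1 at 3.18%. The cilium list stood at 32.6% there and Foxj1 at 73.6%, but Ccdc153, a member of the list, stood at 1.73%. Pcp4, Calb1 and Rit2 thus stood below the cilium list at this step with intervals that did not reach that of the list, while the interval of Cdr1 (8.25 to 34.2) did. In the 68 cells between 1 and 1.25% the 5 genes stood at 43.1 to 56.1% and the list at 74.1%. Uninjured cells of that same step, of which there were 32, held Pcp4 at 694 CPM (610 to 786) against 324 CPM in the injured cells. Their cilium list stood at 81.3%, so in cells of the same step the injured cells held less Pcp4. Htr5b stood at 107 CPM (75.6 to 147) in these uninjured cells against 32.2 CPM (22.6 to 44.3) in the injured ones, and Rit2 at 92.7 CPM (63.8 to 130) against 40.9 CPM (30.0 to 54.3). The other two did not lie apart: Cdr1 stood at 45.0 CPM (25.7 to 73.0) against 31.3 CPM (21.9 to 43.3), and Calb1 had the opposite order, at 36.5 CPM (19.5 to 62.5) against 68.7 CPM (54.4 to 85.6).

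**Figure D3:**
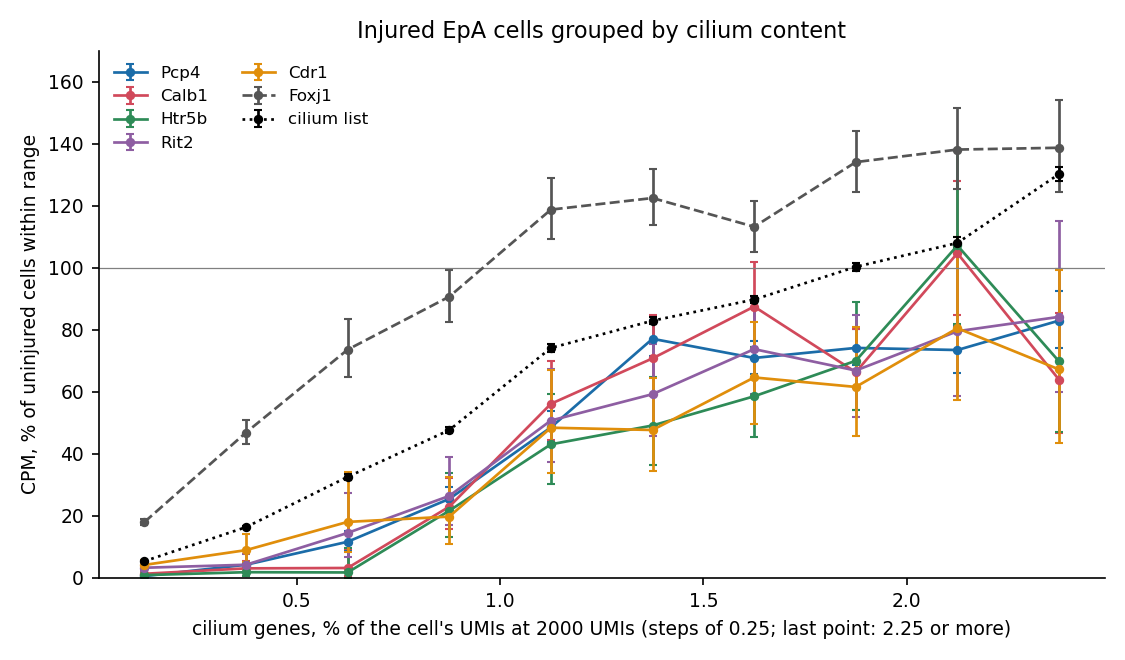
CPM of each gene in injured EpA cells as a percent of its CPM in uninjured cells within the range (y axis), by the share of cilium genes in the cell (x axis, steps of 0.25% with the last pooling higher shares); bars are 95% counting intervals. The 5 genes lie under the cilium list (dotted) and Foxj1 (dashed) through the lower steps, as with Pcp4 at 11.6% where the list is at 32.6%.

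Within the uninjured library alone, levels varied less with the cilium share than across the injured cells. In 5 equal groups from lowest to highest share, Pcp4 stood at 675, 710, 668, 686 and 598 CPM. Its highest group (560 to 638) did not overlap the 2nd (670 to 753) or the 4th (646 to 728) in its interval. Calb1 stood at 68.1, 130, 111, 139 and 149 CPM, and its lowest group did not overlap the other 4 in its interval (55.4 to 82.8). Htr5b ran from 67.1 to 87.1 CPM, Rit2 from 70.7 to 93.9 CPM and Cdr1 from 52.4 to 73.2 CPM over the groups. Calb1 was thus the 1 gene of the 5 whose lowest group stood apart from the rest. In the lowest of 5 such groups of the injured library (198 cells, median 39217 UMIs), Pcp4 was down to 1.98 CPM (1.15 to 3.17), Calb1 and Rit2 to 1.86 CPM each, Cdr1 to 2.68 CPM and Htr5b to 0.349 CPM on 3 UMIs. The kept cells of that library that were not ependymal held Pcp4 at 1.15 CPM (0.46 to 2.36), so Pcp4 in this group was not distinguishable from the background. Htr5b was at the detection floor in both, and Cdr1, with an interval of 1.70 to 4.02 CPM, stayed above the 0.605 CPM that its count of 0 in those other cells allows. Foxj1 still stood at 64.4 CPM in this group, against 1.97 CPM in the other cells.

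The genes whose level across cells was most like that of each member were taken by Pearson's r on log2(1 + UMIs per 10000), over genes at 50 CPM or more. These r share the cells' depth and are descriptions. In uninjured cells only Pcp4 had 5 genes over r = 0.2: Mt3 (0.33), Fam183b (0.31), Dbi (0.30), Myl6 (0.29) and Rsph1 (0.28). Among uninjured cells within the range, only Myl6 (0.31) stayed among the first 5 for Pcp4. The others there were Itm2b (0.25), Ifitm3 (0.24), Basp1 (0.24) and Vim (0.23). In injured cells all 5 members had partners over 0.2. For Pcp4 they were Ccdc153 (0.77), Tmem212 (0.74), Dynlrb2 (0.73), 4933434E20Rik (0.73) and 1500015O10Rik (0.72), and the first 3 are cilium genes. Ccdc153 led for Calb1 (0.46) and Rit2 (0.49), Tmem212 for Htr5b (0.40) and 1700012B09Rik for Cdr1 (0.37). Among injured cells within the range only Pcp4 kept 5 partners over 0.2: 1500015O10Rik, also in the list above (0.38), Pde6d (0.37), Pcp4l1 (0.35), Folr1 (0.34) and Pebp1 (0.33).

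To see what else distinguished the cells that carried a gene, the cells within the range with most of it for their depth (104 uninjured, 84 injured) were set against those with least, a split chosen after the data had been seen. For Calb1, Htr5b, Rit2 and Cdr1 the comparison cells had no UMI of the gene. In uninjured cells, Calb1 carriers differed 2-fold in 0 of 3380 other genes, and in injured cells in 3 of 3443 (0.0871%). Htr5b carriers differed in 2 of 3387 uninjured (0.059%) and 8 of 3469 injured (0.231%), Rit2 carriers in 2 of 3370 (0.0593%) and 4 of 3439 (0.116%), and Cdr1 carriers in 1 of 3390 (0.0295%) and 8 of 3427 (0.233%). For each of these 4 genes, 0 genes were 2-fold apart in both libraries. The cells richest in these genes held as few as 1 UMI, so the split partly follows which cells gave a UMI. With so few genes called in each library, a shared gene could hardly have come up, and nothing is read from its absence.

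Pcp4 gave more UMIs to split on, at least 6 in each of its richest uninjured cells and 4 in each of its richest injured cells. Its 104 richest uninjured cells (1232 CPM) differed 2-fold from the 104 poorest (152 CPM) in 24 of 3443 genes (0.697%), 7 higher and 17 lower. In injured cells 121 of 3568 did (3.39%). In both libraries, of 3207 genes tested in both, Agr3, Bhmt, Cryab, Gchfr and Lin7a were higher in Pcp4-rich cells and Atf3, Dusp1, Emp1, Ier2 and Zfp36 were lower. Bhmt, a methyltransferase of methionine synthesis, stood at 75.3 CPM in rich and 25.8 CPM in poor uninjured cells, and at 55.1 and 19.3 CPM in injured cells. Lin7a, a scaffold protein of cell junctions, stood at 140 and 54.8 CPM, and in injured cells at 168 and 69.5 CPM. Cryab, a small heat shock protein, stood at 190 and 92.3 CPM, and in injured cells at 112 and 52.5 CPM. The genes on the other side include early response genes. Atf3, a stress-induced transcription factor, stood at 36.3 CPM in rich and 128 CPM in poor uninjured cells, 3.51-fold lower (2.56 to 4.89), and was 3.01-fold lower (2.10 to 4.42) in injured cells. Zfp36, which destabilises cytokine mRNAs, was 2.2-fold lower (1.58 to 3.11) and 4.86-fold lower (2.63 to 9.82). Cilium genes took 1.76% of UMIs in rich and 1.86% in poor uninjured cells, and the median depths were 11520.5 and 10339 UMIs. Neuron markers other than Stmn2 and Map2 had 15 UMIs in rich and 10 in poor cells. In injured cells these measures had the opposite order: the cilium share was 1.77% in rich and 1.62% in poor cells, the median depths were 10348.5 and 13306 UMIs, and the neuron markers had 9 and 12 UMIs.

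**Figure D4:**
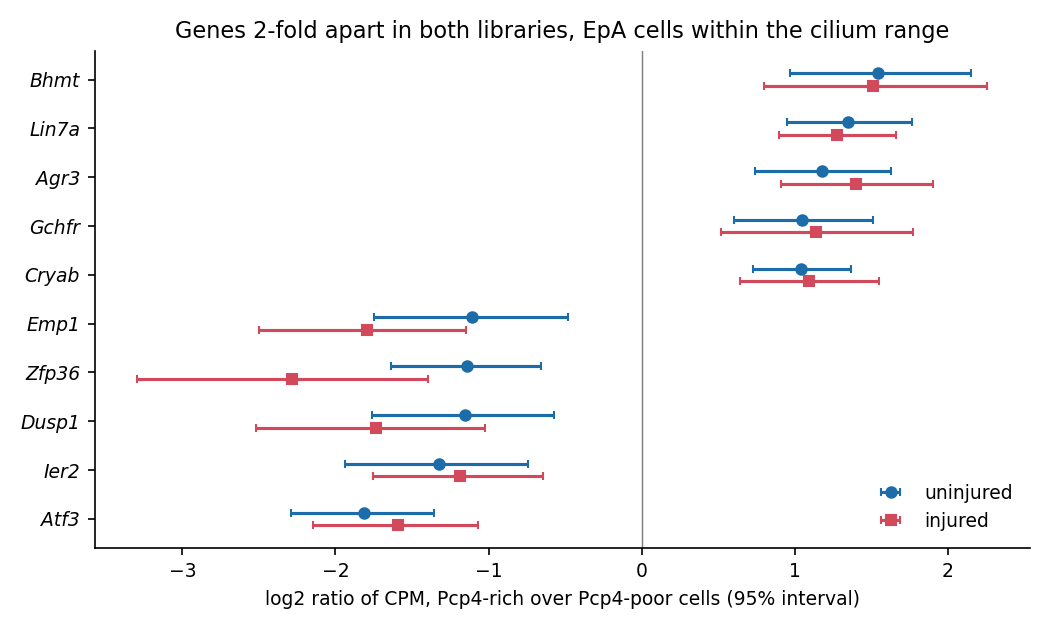
Log2 ratio of CPM between Pcp4-rich and Pcp4-poor EpA cells within the cilium range (x axis, with 95% counting intervals) for the 10 genes (y axis) that were 2-fold apart in both libraries, uninjured as circles and injured as squares. The 5 genes from Bhmt to Cryab lie right of 0 and the 5 from Emp1 to Atf3 left of it, as with Atf3 at -1.80 in uninjured and -1.58 in injured cells.

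Outside the EpA cells, the kept cells (156 uninjured, 224 injured) held little of the 5 genes. In the uninjured library the kept cells outside EpA held Pcp4 at 21.1 CPM, 31.7-fold below the EpA cells (21.8 to 48.1), Rit2 at 5.46 CPM on 7 UMIs, Calb1 at 2.34 CPM on 3 UMIs, and Htr5b and Cdr1 at 0.780 CPM on 1 UMI each. In the injured library Pcp4 stood at 12.3 CPM outside EpA against 139 CPM within it. Clustering the 380 cells over both libraries gave 9 clusters, 1 of them ependymal-like by its markers (4 uninjured and 34 injured cells). This cluster held 79 of the 86 Pcp4 UMIs, 20 of the 22 Calb1 UMIs and 10 of the 11 Rit2 UMIs found outside EpA in the injured library, and 1 cell alone held 31 of the Pcp4 UMIs. In the uninjured library it held 8 of the 27 Pcp4 UMIs and 4 of the 7 Rit2 UMIs. Its levels over both libraries were 94.2 CPM of Pcp4 (75.4 to 116), 21.6 CPM of Calb1, 15.2 CPM of Rit2, 7.58 CPM of Htr5b and 4.33 CPM of Cdr1. Its leading genes Nnat and Fabp7 came with the cilium genes Fam183b, Rsph1, Ccdc153 and Tmem212.

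The remaining 152 uninjured and 190 injured cells fell into fibroblast-like, astrocyte-like and microglia and macrophage-like clusters and 5 that took no name, 3 of which carried all 10 endothelial markers. In them Pcp4 stood at 15.5 CPM (9.32 to 24.2) in the uninjured and 1.15 CPM in the injured library. Cdr1 had 0 UMIs in both, which in the injured library allows up to 0.605 CPM. Htr5b had 0 UMIs in the uninjured library and 3 in the injured. The higher uninjured Pcp4 value sat beside the higher Pcp4 level of that library's EpA cells, and the part of free RNA in it was not tested.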

How the data were processed

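The submitters' processing notes name Cell Ranger 3.0.1, Seurat and the build mm10, without the role of each, and give neither the annotation nor the use of strand. The authors deposited raw UMI counts per gene and cell, without normalisation, for each library, for all kept cells and for EpA cells. Samples were grouped by the labels, with 1 library per condition, so no test was run. The 5 genes and the gene lists were chosen with earlier results of these data known.

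UMIs were summed over cells and scaled to CPM. Intervals are exact at 95% (Poisson for levels, conditional binomial for ratios, Clopper-Pearson for shares) and cover counting error only. Log2 ratios over many genes had 0.5 counts added. A gene was called by size, at 50 CPM or more in either group and 2-fold. Rates of 0 were read against 3 counts. Cells outside EpA were clustered with scanpy 1.11.5 (Leiden, resolution 0.5, 2000 variable genes, 20 components, 15 neighbours) and named from at least 3 fixed markers over 100 CPM where that class also had the most markers, and at least 1, among the 10 leading genes; a cluster led by granulocyte genes was left unnamed. Doublets were not called. The scripts were tested on simulated data. Named genes were the 5, the outermost 2 in each direction and the relatives from each list, the 5 most correlated genes where the fifth r passed 0.2, and Foxj1 and Ccdc153; genes of the Pcp4 split were named after their values were seen.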

Additional observations from a re-analysis of the deposited data

Results flagged for a closer look

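The barcodes that the authors' tables of kept cells leave out were used in no comparison above, and they carried the 5 genes. In the 165 uninjured barcodes not kept (median 2272 UMIs), Pcp4 stood at 569 CPM, Calb1 at 60.8 CPM, Htr5b at 33.8 CPM, Rit2 at 42.2 CPM and Cdr1 at 82.8 CPM. In the 338 injured barcodes not kept (median 2350 UMIs), Pcp4 stood at 153 CPM, Calb1 at 19.9 CPM, Htr5b at 11.1 CPM, Rit2 at 17.7 CPM and Cdr1 at 23.6 CPM. These values are above the limit that a count of 0 allows. Against the EpA cells of the same library, Cdr1 was the 1 gene that was higher in both, 1.3-fold in uninjured (0.95 to 1.74) and 1.78-fold in injured barcodes (1.19 to 2.55), and the uninjured interval includes no difference. In the uninjured ones Htr5b was 2.26-fold lower (1.45 to 3.73), Calb1 1.97-fold (1.41 to 2.83), Rit2 1.91-fold (1.28 to 2.98) and Pcp4 1.17-fold (1.05 to 1.31), beside a median log2 ratio of -0.19 over 3476 genes.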

How the results depend on the processing

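With 1 library per condition, no result has an error from replicates and none could be computed leaving a library out. No paired analysis was possible because the labels give no replicate numbers that the conditions share. In every alternative run the log2 ratios of the 5 genes stayed below 0 (70 of 70). Over all EpA cells all 5 genes were past the 2-fold mark in each alternative, while within the cilium range none was, with values from -0.76 to -0.35. The 5 genes were picked for their fall in these same cells, so neither the sign nor the count past 2-fold is read as support. Weighting every cell alike gave -1.31 for Pcp4, -1.41 for Calb1, -1.76 for Htr5b, -1.48 for Rit2 and -1.38 for Cdr1. Thinning each cell to 2000 UMIs gave -1.33 for Pcp4, -1.82 for Calb1, -1.98 for Htr5b and -1.40 for Rit2. UMIs per cell without scaling gave -1.40 for Pcp4, -1.30 for Calb1, -1.63 for Htr5b, -1.35 for Rit2 and -1.40 for Cdr1. Without cells holding at least 2 core genes of G2 and mitosis the values were -1.50, -1.57, -1.89, -1.60 and -1.56 in that order. In cells with 1000 UMIs or more and mitochondrially encoded UMIs under 10% (176 uninjured and 819 injured) they were -2.48, -2.60, -2.80, -2.43 and -2.55. Pcp4 stood at -2.34 with mitochondrial genes left out of the total and at -2.19 with TMM factors of edgeR 4.0.16. The cause of these shifts was not tested. The number of genes at least 2-fold lower was 511 with the floor of 50 CPM, 830 with 20 CPM and 2747 with none. With the range set at the 1st percentile of uninjured cells, Pcp4 stood at -0.54 within it, and below it the 5 genes stood at -5.38, -5.38, -5.75, -4.42 and -4.09. With the 10th percentile, Pcp4, Calb1 and Htr5b stood at -4.11, -4.06 and -4.40 below it, and with shares from cells thinned to 4000 UMIs Htr5b stood at -5.34. Pairs of genes with intervals apart numbered 10 in the injured library at 4000 UMIs and 10 without thinning, and without thinning 2 in the uninjured library. At 2000 UMIs a cell seldom holds a UMI of the 4 rarer genes, which limits what co-detection there can show.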
